A study of Mus musculus with 6 samples.

Results

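The genes described here encode the carriers that move iron, manganese, zinc, copper and magnesium ions across the membranes of mouse bone marrow-derived macrophages. They were chosen by a rule on names, as the rows of the deposited table whose symbol belongs to the solute carrier families Slc11a, Slc30a, Slc31a, Slc39a, Slc40a and Slc41a, with pseudogenes left out. The rule gave 32 of the 55401 genes listed, and 26 of them had enough counts to be tested, among 16256 tested genes. The study compared 3 libraries of macrophages labelled Mettl3-/- (KO) with 3 libraries of wild-type (WT) macrophages. Both groups were grown from C57BL/6 bone marrow, after lysis of red blood cells, for 7 days in 10% serum with 40 ng/mL of M-CSF, the cytokine that drives macrophage differentiation. The labels place a treatment after this culture without naming it, and how Mettl3 was deleted, and in which cells, is not given in the labels. Neither are the age and number of animals, so p-values measure the spread between these libraries, which may be technical.

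The Mettl3 protein is the active subunit of a complex that methylates adenosine in messenger RNA (m6A). Macrophages take up iron bound to transferrin and recover it from the heme of engulfed red blood cells. Slc11a2 (DMT1) passes that iron from endosomes to the cytosol, Slc11a1 (NRAMP1) pumps divalent metals out of the phagosome, and Slc40a1 (ferroportin) is the exporter that returns iron to the blood. The Slc39a family (ZIP) brings zinc into the cytosol from outside or from organelles, and the Slc30a family (ZnT) carries it the other way. Slc31a1 (CTR1) is the main copper importer, and the Slc41a family carries magnesium.

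Library totals ran from 68145877 to 77997742 estimated counts in labelled KO and from 67280390 to 68658821 in WT, and the transporters took 0.219% to 0.229% of the counts of each library. Mettl3 itself, the check on the genotype, had FPKM (fragment counts divided by transcript length and by depth) of 2.504, 2.56 and 2.93 in the libraries labelled KO, against 2.62, 2.91 and 2.26 in WT. Labelled KO over WT, the log2 fold change here and below, came to 0.02 (SE 0.11, edgeR adjusted p = 0.93), so Mettl3 transcripts were not lower in the libraries labelled KO. These values are totals per gene, do not tell exons apart, and may hold reads of Tox4, a neighbour on the opposite strand. Directions below are therefore those of the labels. Of the macrophage markers, Csf1r, the M-CSF receptor, averaged 687 ± 5.61 FPKM in labelled KO and 569 ± 1.147 in WT. Adgre1, which encodes F4/80, averaged 396 ± 12.1 in labelled KO and 492 ± 2.78 in WT, and Itgam, an integrin of myeloid cells, had means of 183 and 142, labelled KO and WT, with SDs of 27.03 and 43.5 (n = 3 each). Of 10 tested monocyte and progenitor markers, 7 were higher in labelled KO and 0 lower at an edgeR adjusted p under 0.05. Over all tested genes, 7.01% were higher and 5.67% lower. The summed FPKM of these markers was 588 to 599 in labelled KO, against 375 to 385 in WT. Of 9 macrophage markers, 3 were higher and 3 lower, with sums of 8568 to 8660 FPKM in labelled KO, against 16555 to 16902 in WT. Most of that sum was Lyz2, which encodes lysozyme M, at 6012 ± 62.5 in labelled KO and 14189 ± 212 in WT. Without Lyz2, a sum added after the values were seen, the other 8 markers came to 2581 to 2634 in labelled KO and 2471 to 2553 in WT. Of neutrophil markers 1 of 10 was higher and 1 lower, of stromal and endothelial markers 2 of 10 were higher and 1 lower, and of dendritic (4 tested), lymphoid (11) and mast cell (1) markers 0 were called by edgeR or by DESeq2, with 2 lymphoid markers at an unadjusted p under 0.05 and 0 in the other lists. Of 11 erythroid markers found, 7 were at 0 in all 6 libraries, none had enough counts to be tested, and their sum was at most 0.0581 FPKM in labelled KO and 0.179 in WT. The part of these marker differences in the results below was not tested, and in bulk RNA fewer cells of a type and less RNA per cell cannot be told apart.

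Slc31a1 and Slc41a1 were higher in labelled KO and Slc40a1 and Slc11a2 were lower, so 4 of 26 tested transporters were called at an edgeR adjusted p under 0.05, or 15.4%. Over all tested genes the share was 12.7%, with 7.01% higher and 5.67% lower, so the share among the transporters lies near the background. The FPKM ranges of the groups did not overlap for 8 of the 26, 4 in each direction, or 30.8%, where 33.8% of all tested genes did so. Of the 26, 16 had a positive and 10 a negative log2 fold change, with a median of 0.04, and the median over all tested genes was -0.0049. The 4 calls held in each of 13 other fits (another tool, scaling, filter or unit, a replicate block, and each library left out), and 19 of the 26 were called in none of them. For a single gene, the smallest two-sided p that an exact permutation of 3 against 3 libraries can give is 0.1, and each of the 4 called transporters had that value.

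**Figure D1:**
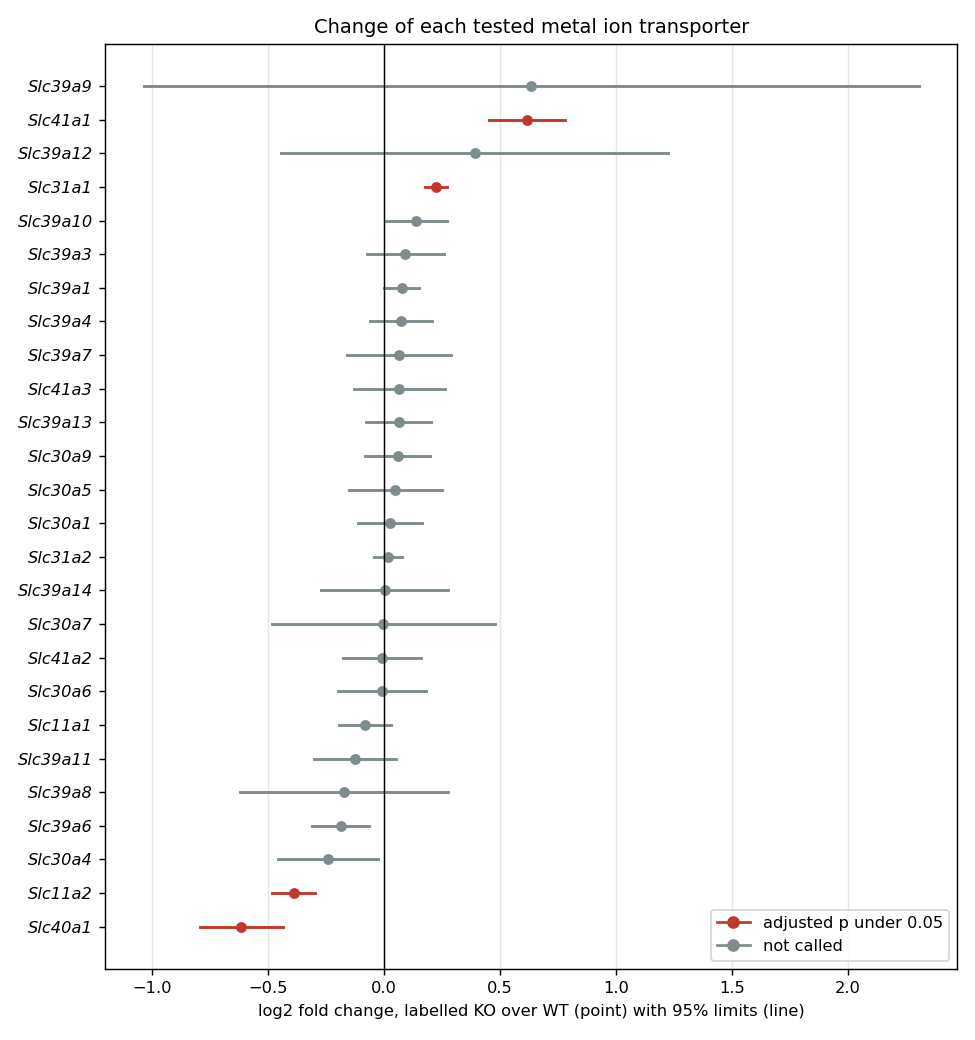
Labelled KO over WT on the log2 scale for the 26 tested transporters (points) with 95% limits (lines), ordered by size. The 4 called transporters (red) lie away from 0, with Slc41a1 at 0.62 and Slc40a1 at -0.61, and Slc39a9, at the top, has limits from -1.03 to 2.31.

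Transcript levels differed widely between members, on the FPKM scale, which is per length. The 4 most abundant were Slc31a2, an endosomal relative of the copper importer, Slc11a1, Slc39a1 and Slc31a1. Slc31a2 led both groups, at 108 ± 2.08 FPKM in labelled KO and 105 ± 1.38 in WT (SD, n = 3 each), and its replicates stood above those of the next member in both. Slc31a1 had the second highest mean in labelled KO, at 97.2 ± 1.36, where its range overlapped that of Slc11a1, and it came below Slc39a1 in WT, at 82.1 ± 0.658, where the ranges of these neighbours overlapped. Slc39a7 followed at 33.4 ± 2.31 in labelled KO and 31.5 ± 3.65 in WT. The next steps were Slc11a2, Slc40a1 and Slc39a4, the last being an importer best known from the gut, at 12.7 ± 0.583 in labelled KO and 11.9 ± 0.545 in WT. Slc40a1 stood above Slc39a4 in WT with no overlap, while in labelled KO their means were in the other order and Slc40a1 averaged 10.3. Below them most members lay between 3 and 10 FPKM, where the ranges of neighbours in the order often overlapped. Slc39a14, Slc30a4 and Slc39a8 lay near 1 FPKM and Slc39a12 at 0.265 ± 0.103 in labelled KO and 0.198 ± 0.0403 in WT. Replicates of the transporters were close, with a median coefficient of variation of 4.42% in labelled KO and 5.59% in WT. Over all tested genes, which were not matched to the transporters for level, it was 8.93% in labelled KO and 9.41% in WT.

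**Figure D2:**
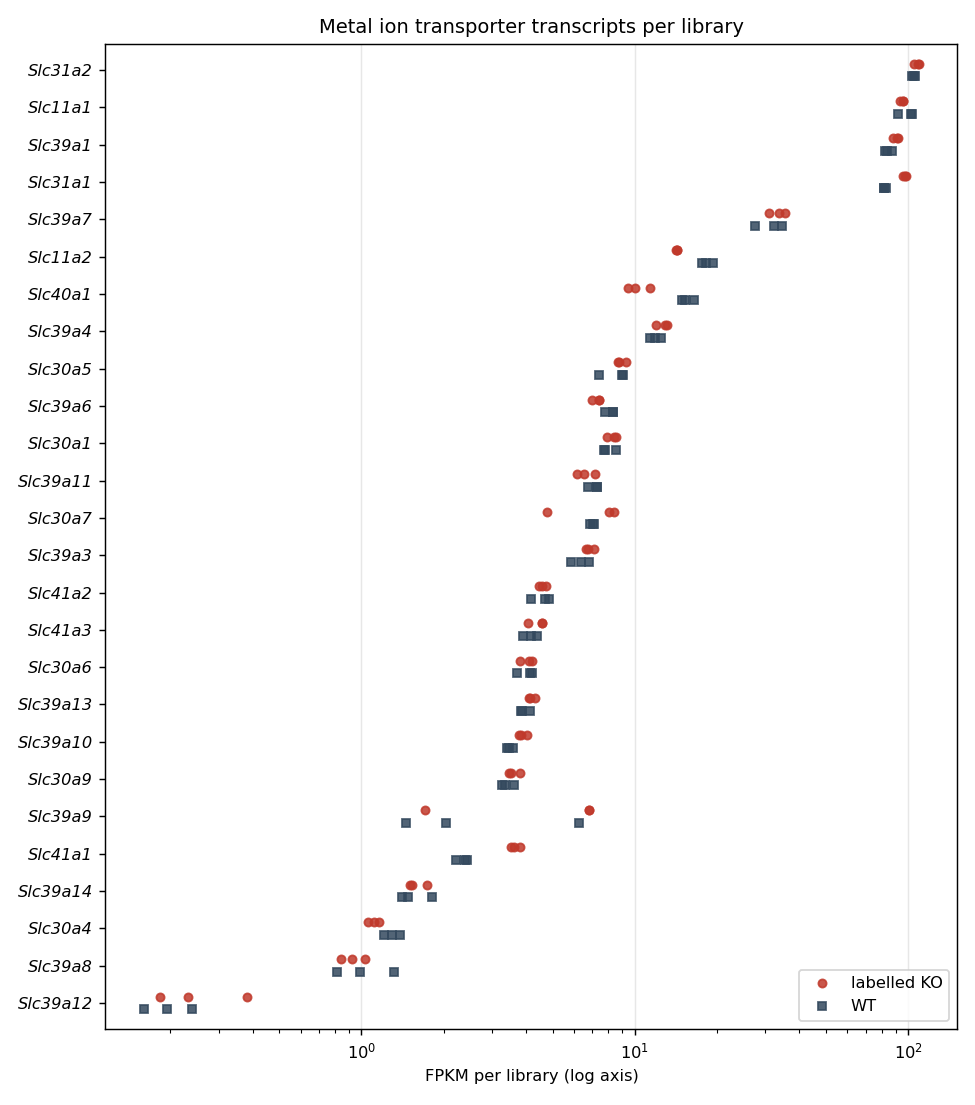
FPKM of each tested transporter in every library on a log axis, with labelled KO as red circles above WT as dark squares, ordered by level. Slc31a2, Slc11a1, Slc39a1 and Slc31a1 form the upper group between 81.6 and 109 FPKM, and Slc39a9 and Slc30a7 show single libraries far from their replicates.

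Slc40a1, the iron exporter ferroportin, had the largest fall. The gene (ENSMUSG00000025993, chr1:45908068-45926523, minus strand, mm10) had FPKM of 11.3, 9.45 and 10.0 in the libraries labelled KO, against 16.5, 14.8 and 15.2 in WT. The highest library labelled KO lay below the lowest WT library. This was a log2 fold change of -0.61 with an SE of 0.07 (edgeR adjusted p = 0.00375), a ratio of 0.654 with 95% limits of 0.578 and 0.740, on 6539 to 11217 counts per library. Ferroportin transcripts are also abundant in erythroid precursors, and the hemoglobin genes listed (Hbb-bs, Hbb-bt, Hba-a1 and Hba-a2) were at 0 in all 6 libraries.

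Slc11a2, the endosomal iron importer DMT1, fell as well (ENSMUSG00000023030, chr15:100387898-100424092, minus strand). Its FPKM was 14.2, 14.2 and 14.2 in labelled KO, against 19.3, 17.6 and 18.2 in WT. The groups did not overlap, and the libraries labelled KO had a coefficient of variation of 0.284%. Slc11a2 changed by -0.39 on the log2 scale (SE 0.04, edgeR adjusted p = 0.00177), a ratio of 0.765 with 95% limits of 0.717 and 0.816. Its exons share 6.33% of their bases with Gm5475 on the opposite strand, which averaged 6.33 counts. Because both iron carriers fell, their ratio within a library was also computed, after the values were seen. Slc40a1 over Slc11a2 was 0.722 ± 0.0699 in labelled KO and 0.844 ± 0.00964 in WT (SD, n = 3 each, exact two-sided permutation p = 0.1, the smallest possible).

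Slc11a1, the gene of the phagosomal metal pump NRAMP1, was among the most abundant transporters by transcript, which does not tell whether its protein works. It had FPKM of 95.6, 96.0 and 93.5 in labelled KO, against 103, 103 and 92.0 in WT, where the third library lay below those labelled KO. It changed by -0.08 on the log2 scale (SE 0.05, edgeR adjusted p = 0.335), and the ratio had 95% limits of 0.874 and 1.02. Without WT replicate 3 the fold change was -0.13 with an adjusted p of 0.0264, so this library decides the call, and over the 6 fits that leave out a library the adjusted p ran from 0.0264 to 0.613.

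**Figure D3:**
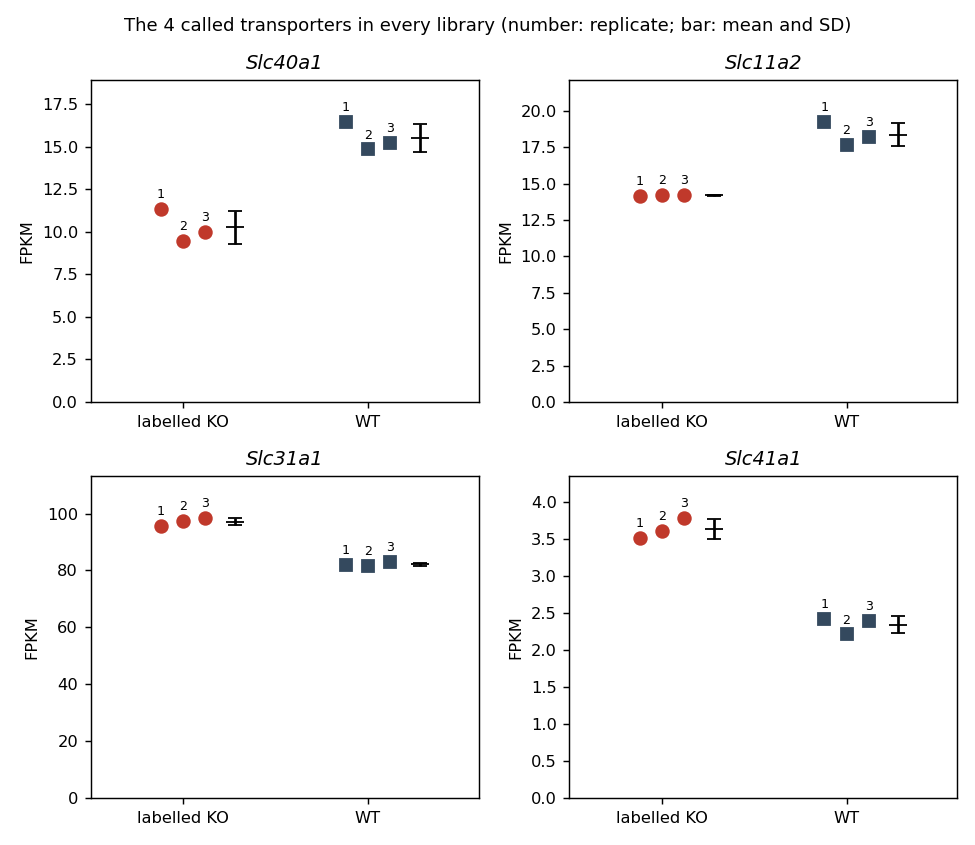
FPKM of Slc40a1, Slc11a2, Slc31a1 and Slc41a1 in every library (numbered by replicate), labelled KO left of WT, with the mean and SD of 3 libraries beside the points. Groups do not overlap in any of the 4 panels, with Slc40a1 at 9.45 to 11.3 against 14.8 to 16.5.

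Iron genes outside the carrier families moved in both directions. Of 22 tested genes of iron uptake, release and regulation, 2 were higher, 4 lower and 16 not called, with a median log2 fold change of -0.01. Over all tested genes 12.7% were called, with 7.01% higher and 5.67% lower. Tfrc, the transferrin receptor that brings iron into the endosome where Slc11a2 acts, had FPKM of 11.2, 11.3 and 10.3 in labelled KO, against 19.1, 19.0 and 18.7 in WT. No library overlapped, and the log2 fold change was -0.81 (SE 0.04, edgeR adjusted p = 0.000142). Fbxl5, the iron-sensing subunit that sends iron regulatory protein 2 to degradation, had FPKM of 8.66, 8.49 and 8.71 in labelled KO, against 5.51, 5.41 and 5.56 in WT. Its log2 fold change was 0.63 (SE 0.03, edgeR adjusted p = 0.000132), again with no overlap. Slc48a1, a heme carrier of the phagolysosome, was lower at 162 ± 2.23 FPKM in labelled KO and 181 ± 2.35 in WT (log2 fold change -0.18). Pcbp2, an RNA-binding protein that also carries cytosolic iron, was lower at 37.8 ± 0.660 FPKM in labelled KO and 42.6 ± 1.20 in WT (-0.19). The remaining called genes of this list were named after their values were seen. Aco1, which encodes iron regulatory protein 1, was higher at 15.2 ± 0.213 FPKM in labelled KO and 12.7 ± 0.395 in WT, and Lcn2, a siderophore-binding protein, was lower at 41.4 FPKM in labelled KO and 49.5 in WT. Ireb2, which encodes iron regulatory protein 2, averaged 6.67 ± 0.0625 FPKM in labelled KO and 6.66 ± 0.118 in WT, and was also named after its values were seen (adjusted p = 0.825).

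Several of these transcripts are textbook targets of the iron regulatory proteins, which bind a short stem-loop, the iron-responsive element. In a 5′ UTR the bound protein blocks translation, and in the 3′ UTR of Tfrc it protects the transcript from decay. The annotated transcripts were scanned for a C, 5 bases, the loop CAGNGN and 5 bases that pair with the first 5 (G-U pairs allowed). A match stood in 986 of 21901 protein-coding genes, and in 1 of the 32 transporters. That one was Slc40a1, whose match lies in the 5′ UTR with its loop at base 96 of a transcript of 3370 bases. The scan looks for 1 form of the element in the GENCODE M21 transcripts. A transporter without a match, such as Slc11a2, may carry another form. The sites of Tfrc, and of the ferritin chains Ftl1 and Fth1, which store iron, are shown because their transcripts moved beside Slc40a1 or belong to the same regulon. Each is given 5′ to 3′ in DNA letters of the transcript, with the loop in capitals. Tfrc is on chromosome 16 with its 5 sites in the 3′ UTR, and Ftl1 (chromosome 7) and Fth1 (chromosome 19) each have 1 in the 5′ UTR.
Tfrc site 1: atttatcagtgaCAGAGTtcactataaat
Tfrc site 2: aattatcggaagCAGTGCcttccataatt
Tfrc site 3: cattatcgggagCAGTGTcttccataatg
Tfrc site 4: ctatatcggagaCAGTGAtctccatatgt
Tfrc site 5: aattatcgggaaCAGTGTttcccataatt
Ftl1: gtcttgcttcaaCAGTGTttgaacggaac
Fth1: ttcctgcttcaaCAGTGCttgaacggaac
The matches say where these letters stand and not whether a protein bound them in these cells.

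Of 10 tested genes of heme breakdown and iron storage, 3 were lower and 1 higher, with a median log2 fold change of -0.13. The share called over all tested genes was 12.7%. Ftl1, the ferritin light chain, had FPKM of 3702, 3775 and 3744 in labelled KO, against 4204, 4231 and 4231 in WT. Its groups were far apart for their spread (log2 fold change -0.19, SE 0.01, edgeR adjusted p = 0.000109). Hmox1, the inducible heme oxygenase that frees iron from heme, had FPKM of 399, 407 and 404 in labelled KO, against 491, 492 and 493 in WT (log2 fold change -0.30, SE 0.01, edgeR adjusted p = 0.000101). Hmox1 values of the groups did not overlap. Blvra, which reduces the biliverdin that Hmox1 makes, averaged 32.4 ± 0.720 FPKM in labelled KO and 37.1 ± 1.17 in WT, with an adjusted p of 0.0154 that was above 0.05 without KO replicate 1 (0.0600) and without KO replicate 3 (0.0571). Hmox2, the constitutive heme oxygenase, averaged 62.9 ± 5.35 FPKM in labelled KO and 50.8 ± 2.28 in WT, with an adjusted p of 0.0382 that held in 1 of the 6 fits without a library, the one without KO replicate 1 (0.0363), and reached 0.114. Fth1, the ferritin heavy chain, was uneven and is named after its values were seen. It had FPKM of 3099, 1617 and 1700 in labelled KO, against 3816, 2064 and 3756 in WT, so the groups overlapped (log2 fold change -0.60, SE 0.33, edgeR adjusted p = 0.309). Ferritin genes have processed pseudogenes, and reads split among these copies would make their totals uncertain.

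Copper carriers were among the most abundant transporters, and the importer was higher in labelled KO. Slc31a1 (ENSMUSG00000066150, chr4:62360727-62391769, plus strand), the plasma membrane importer CTR1, had FPKM of 95.8, 97.3 and 98.5 in labelled KO, against 81.9, 81.6 and 82.9 in WT. The groups did not overlap and lay far apart for their spread. The log2 fold change was 0.23 (SE 0.02, edgeR adjusted p = 0.000951), a ratio of 1.17 with 95% limits of 1.13 and 1.21. Slc31a2 (CTR2), its neighbour on the same chromosome, had FPKM of 105, 109 and 109 in labelled KO, against 104, 106 and 106 in WT. These ranges overlapped, and the log2 change was 0.02 (SE 0.03, edgeR adjusted p = 0.692), a ratio with 95% limits of 0.972 and 1.06. The ratio of Slc31a1 to Slc31a2 within a library, computed after the values were seen, was 0.902 ± 0.00996 in labelled KO and 0.781 ± 0.00860 in WT (SD, n = 3 each, exact two-sided permutation p = 0.1, the smallest possible). Because Slc31a2 was nearly level, this ratio repeats the change of Slc31a1 and is not separate support for it.

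Of 15 tested genes that distribute copper inside the cell, 1 was higher and 2 lower, with a median log2 fold change of -0.11. The share called over all tested genes was 12.7%. Sod1, the copper and zinc superoxide dismutase, had FPKM of 18.5, 18.6 and 18.2 in labelled KO, against 23.1, 22.2 and 22.9 in WT. It was lower with no overlap (log2 fold change -0.32, SE 0.03, edgeR adjusted p = 0.00163). Coa6, a copper-handling factor of cytochrome oxidase assembly, averaged 7.88 ± 0.825 FPKM in labelled KO and 5.44 ± 0.561 in WT (log2 fold change 0.52). Its adjusted p of 0.0445 was above 0.05 in each of the 6 fits that leave out a library, at 0.0709 to 0.127. The other call was Mt1, described with zinc. The list also holds Atp7a, the copper pump of the Golgi and of the phagosome, named after its values were seen. It had an adjusted p of 0.185 and averaged 8.88 ± 0.225 FPKM in labelled KO and 8.29 ± 0.114 in WT.

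Among the magnesium carriers, Slc41a1 was higher. The gene (ENSMUSG00000013275, chr1:131827493-131848865, plus strand), described as a sodium-dependent magnesium exporter of the plasma membrane, had FPKM of 3.52, 3.61 and 3.79 in labelled KO, against 2.43, 2.21 and 2.40 in WT. The lowest library labelled KO was above the highest WT library. Slc41a1 changed by 0.62 on the log2 scale (SE 0.07, edgeR adjusted p = 0.00252), a ratio of 1.53 with 95% limits of 1.37 and 1.72, on 834 to 1636 counts per library. Its relatives Slc41a2 and Slc41a3 had log2 fold changes of -0.01 (SE 0.07) and 0.07 (SE 0.08), with edgeR adjusted p of 0.970 and 0.669. Their 95% limits of the ratio were 0.886 to 1.12 and 0.915 to 1.20. Slc41a1 over the sum of both, computed after the values were seen, was 0.405 ± 0.00414 in labelled KO and 0.269 ± 0.00440 in WT (SD, n = 3 each, exact two-sided permutation p = 0.1, the smallest possible). With both relatives nearly level, that ratio too repeats the change already given for Slc41a1.

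Of 13 tested magnesium channels and exchangers outside these families, 2 were higher and 0 lower, with a median log2 fold change of 0.05. The share called over all tested genes was 12.7%. Cnnm3, of the cyclin M family of magnesium transport mediators, had FPKM of 3.46, 3.66 and 3.43 in labelled KO, against 2.34, 2.01 and 2.63 in WT. Its log2 fold change was 0.58 (SE 0.10, edgeR adjusted p = 0.0151), and the adjusted p was 0.0546 without KO replicate 2 and 0.0530 without WT replicate 1. Trpm7, the channel kinase that admits magnesium, averaged 10.3 ± 0.268 FPKM in labelled KO and 9.23 ± 0.162 in WT (log2 fold change 0.14). Its adjusted p of 0.0422 was above 0.05 in each of the 6 fits that leave out a library, at 0.0719 to 0.128.

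**Figure D4:**
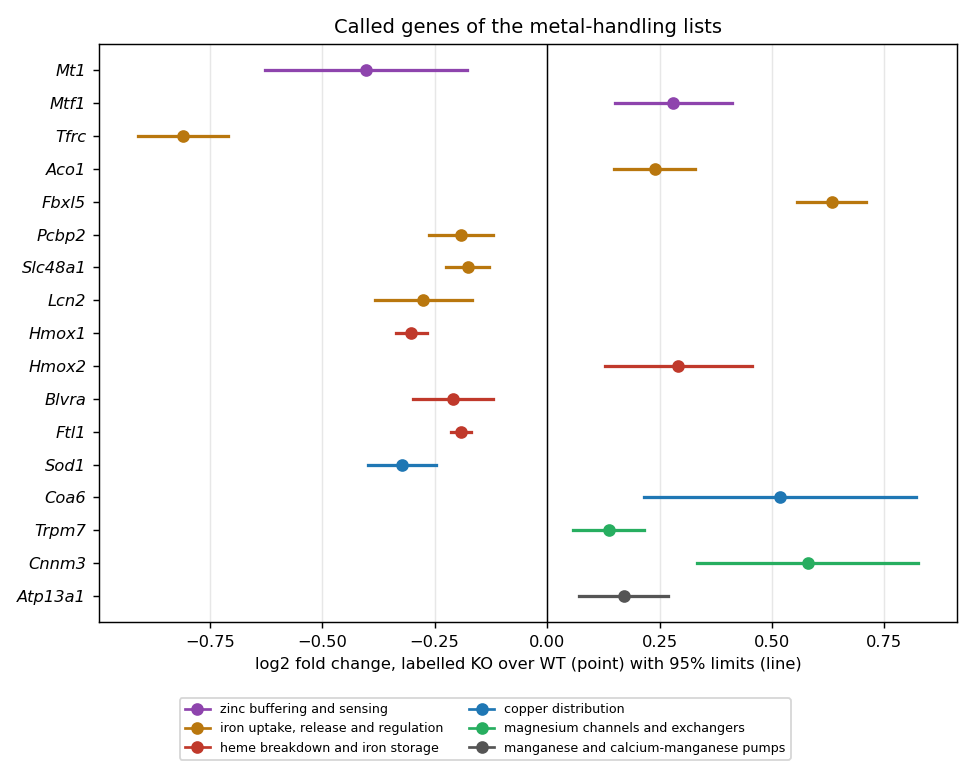
Labelled KO over WT on the log2 scale (points) with 95% limits (lines) for the called genes of the 6 metal-handling lists, coloured by list. Tfrc at -0.81 and Fbxl5 at 0.63 lie farthest from 0 in their directions, and Coa6, Cnnm3 and Mt1 have the widest limits.

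Slc39a8 and Slc39a14, the ZIP carriers that also take manganese, were not called. Slc39a8 (ZIP8) brings zinc and manganese into the cell, and its FPKM was 0.839, 0.920 and 1.03 in labelled KO, against 1.32, 0.984 and 0.811 in WT. The groups overlapped, and the log2 change of -0.17 (SE 0.19, edgeR adjusted p = 0.631) became 0.04 without WT replicate 1. Slc39a14 (ZIP14), an importer of zinc, manganese and unbound iron, had FPKM of 1.51, 1.74 and 1.53 in labelled KO, against 1.41, 1.81 and 1.48 in WT (log2 fold change 0.00, SE 0.11, edgeR adjusted p = 0.988). Of 3 tested genes in a list named for manganese and calcium-manganese pumps, 1 was higher and 0 lower, with a median of 0.11. The share called over all tested genes was 12.7%. The called gene was Atp13a1, which encodes a P-type ATPase of the endoplasmic reticulum, at 15.2 ± 0.548 FPKM in labelled KO and 13.4 ± 0.425 in WT. Its adjusted p of 0.0445 was above 0.05 in each of the 6 fits without a library, at 0.0586 to 0.131.

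The zinc importers of the Slc39a family held no edgeR call among 12 tested members, and 1 with DESeq2. Of them, 9 had a positive and 3 a negative log2 fold change, with a median of 0.07, and 3 had an unadjusted p under 0.05. Over all tested genes 26.5% had such a p. Slc39a1 (ZIP1), the most abundant, had FPKM of 91.6, 87.8 and 91.2 in labelled KO, against 82.6, 83.8 and 87.1 in WT. Its groups did not overlap but lay close, with a log2 change of 0.08 (SE 0.03, edgeR adjusted p = 0.172). The pseudogene Slc39a1-ps had FPKM of 2.83 to 5.28 in labelled KO and 2.04 to 3.66 in WT, and reads of the pair may have been split between them. Slc39a10 (ZIP10), which acts at the plasma membrane with ZIP6, had FPKM of 3.78, 4.05 and 3.82 in labelled KO, against 3.46, 3.60 and 3.40 in WT. These ranges did not overlap either (log2 fold change 0.14, SE 0.05, edgeR adjusted p = 0.161). Slc39a6 (ZIP6) moved the other way, with 7.39, 6.97 and 7.42 FPKM in labelled KO and 8.33, 8.35 and 7.80 in WT. Its groups did not overlap, the log2 fold change was -0.18 (SE 0.05, edgeR adjusted p = 0.0672), and the adjusted p was 0.0415 with DESeq2 and 0.0435 with a filter on FPKM.

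Slc39a3, Slc39a4, Slc39a7, Slc39a11, Slc39a13 and Slc39a14 had log2 fold changes between -0.12 and 0.09, with none called. Slc39a3 (ZIP3) averaged 6.83 ± 0.252 FPKM in labelled KO and 6.33 ± 0.485 in WT, and Slc39a11 (ZIP11) 6.59 ± 0.506 in labelled KO and 7.09 ± 0.320 in WT. Slc39a13 (ZIP13), which works in the secretory pathway and is known for its part in connective tissue, averaged 4.18 ± 0.125 in labelled KO and 3.95 ± 0.166 in WT. The 95% limits of the ratio were 0.951 to 1.20 for Slc39a3, 0.812 to 1.04 for Slc39a11, 0.949 to 1.152 for Slc39a13 and 0.962 to 1.16 for Slc39a4. Slc39a12 (ZIP12), at 37 to 101 counts per library, had limits of 0.735 to 2.34 and gives little precision.

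A few transporters differed more within a group than between the groups. Slc39a9 (ZIP9, of the Golgi) had FPKM of 6.80, 1.71 and 6.79 in labelled KO, against 6.24, 1.46 and 2.04 in WT. Thus 3 libraries held about 6 to 7 FPKM and 3 held about 2 or less, with both levels in both groups, on 1136 to 6054 counts. The fit gave a log2 change of 0.64 (SE 0.69, edgeR adjusted p = 0.633), which was 1.53 without WT replicate 1, 1.05 without KO replicate 2 and 0.29 to 0.39 without any other single library, and was called in none of these fits. Counts and FPKM, both deposited, show the same split, but they differ by depth and a near-constant length, so neither checks the other. The exons of Slc39a9 share 4.52% of their bases with Erh on the opposite strand, and the source of the split was not tested. Slc30a7 (ZnT7, which fills the early secretory pathway with zinc) had FPKM of 8.04, 8.41 and 4.78 in labelled KO, against 7.08, 6.87 and 7.05 in WT. KO replicate 3 lay below the WT libraries and the other two above them, and the log2 change of -0.0016 (SE 0.20, edgeR adjusted p = 0.997) became 0.21 without that library, with an adjusted p of 0.0394. Slc39a7 (ZIP7), which releases zinc from the endoplasmic reticulum, shares 80.7% of its exonic bases with Gm20427, a gene on the same strand. Gm20427 had 595, 1751 and 251 counts in labelled KO, against 1240, 347 and 310 in WT, and the libraries where it was high were those where Slc39a7 was low. Slc39a7 took 92.9%, 77.8% and 96.8% of their summed counts in labelled KO, against 81.3%, 94.9% and 95.7% in WT. The sum was 109 ± 6.94 CPM (counts scaled to a common library total) in labelled KO and 101 ± 3.60 in WT (SD, n = 3 each, exact two-sided permutation p = 0.2), and Slc39a7 alone had a log2 change of 0.07 (SE 0.09, edgeR adjusted p = 0.715).

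**Figure D5:**
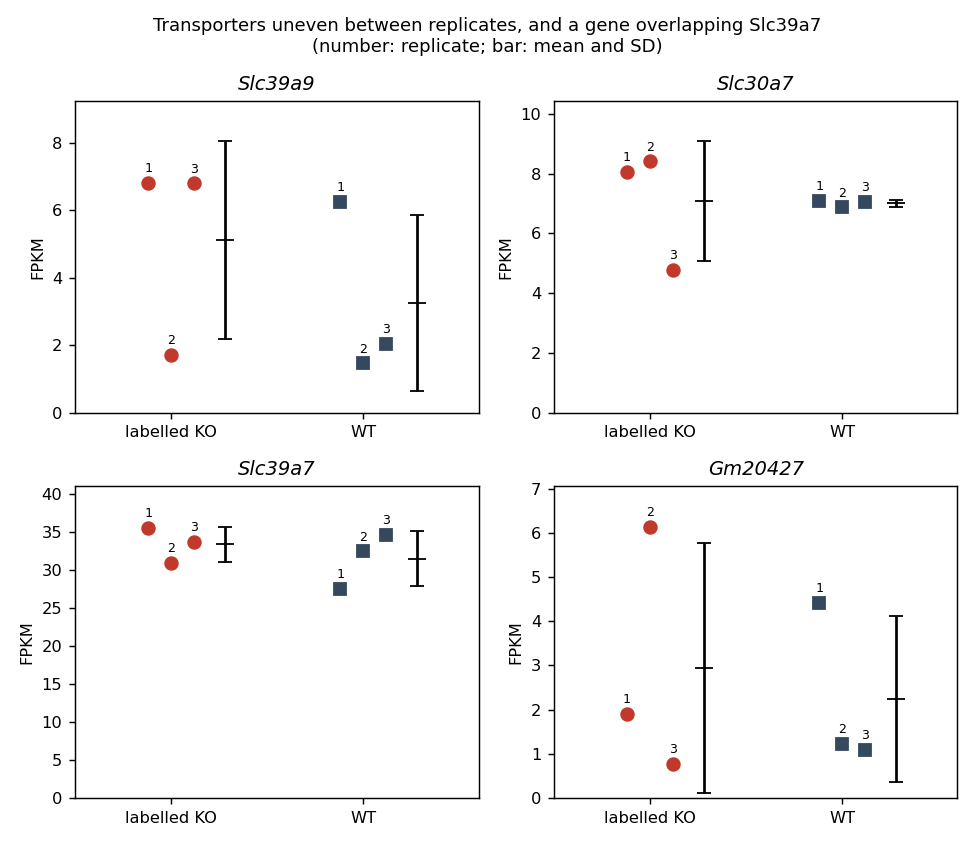
FPKM in every library (numbered by replicate), labelled KO left of WT, with mean and SD of 3 libraries, for Slc39a9, Slc30a7, Slc39a7 and the overlapping gene Gm20427. Slc39a9 splits into 2 levels in both groups, Slc30a7 is low in KO replicate 3 at 4.78, and Gm20427 is high in KO replicate 2 and WT replicate 1, where Slc39a7 is lowest.

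The zinc exporters of the Slc30a family also held no call by edgeR or DESeq2 among 6 tested members, with 1 at an unadjusted p under 0.05 and a median log2 fold change of 0.01. Slc30a1 (ZnT1), the exporter of the plasma membrane and the family member best known to respond to zinc, had FPKM of 8.36, 8.56 and 7.88 in labelled KO, against 7.79, 7.72 and 8.55 in WT. The groups overlapped (log2 change 0.03, SE 0.06, edgeR adjusted p = 0.821). The 95% limits of the ratio were 0.927 and 1.12. Slc30a4 (ZnT4), of the lysosome and endosome, had 1.16, 1.12 and 1.05 FPKM in labelled KO, against 1.38, 1.204 and 1.296 in WT. It did not overlap but missed the threshold (log2 fold change -0.24, SE 0.09, edgeR adjusted p = 0.150). Slc30a5 and Slc30a6 (ZnT5 and ZnT6), which work as a pair in the early secretory pathway, averaged 8.90 ± 0.337 and 4.04 ± 0.202 FPKM in labelled KO, against 8.49 ± 0.932 and 4.01 ± 0.261 in WT. Slc30a9 (ZnT9), of mitochondria, averaged 3.61 ± 0.182 in labelled KO and 3.42 ± 0.185 in WT. The 95% limits of the ratio were 0.902 to 1.19 for Slc30a5, 0.873 to 1.13 for Slc30a6 and 0.946 to 1.149 for Slc30a9.

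Zinc-dependent transcription of Slc30a1 and of the metallothioneins runs through the factor encoded by Mtf1, which binds metal response elements. Of 5 tested genes of zinc buffering and sensing, 1 was higher and 1 lower, with a median log2 fold change of -0.05. The share called over all tested genes was 12.7%. Mtf1 had FPKM of 4.499, 4.82 and 4.48 in labelled KO, against 3.59, 3.93 and 3.71 in WT (log2 fold change 0.28, SE 0.05, edgeR adjusted p = 0.0207). Mt1, a metallothionein that buffers zinc and copper, had FPKM of 24.6, 28.8 and 26.0 in labelled KO, against 38.7, 33.4 and 31.5 in WT (log2 fold change -0.40, SE 0.09, edgeR adjusted p = 0.0383). Neither overlapped between groups, but each call was lost in 5 of the 6 fits without a library. The adjusted p held for Mtf1 without WT replicate 2 (0.0333) and for Mt1 without WT replicate 3 (0.0480), and otherwise reached 0.0688 and 0.118. Mt2, named after its values were seen, averaged 11.8 ± 1.52 FPKM in labelled KO and 15.7 ± 1.36 in WT, with a log2 fold change of -0.42 and an adjusted p of 0.0773. The 250 bases before the RefSeq start of Slc30a1 (GRCm38.p6, chr1:191906531-191906780, plus strand) are shown because this exporter was not called while Mt1 was. The capitals mark the core of the metal response element, TGCACNC read on the opposite strand, at -43 from the start.
Slc30a1: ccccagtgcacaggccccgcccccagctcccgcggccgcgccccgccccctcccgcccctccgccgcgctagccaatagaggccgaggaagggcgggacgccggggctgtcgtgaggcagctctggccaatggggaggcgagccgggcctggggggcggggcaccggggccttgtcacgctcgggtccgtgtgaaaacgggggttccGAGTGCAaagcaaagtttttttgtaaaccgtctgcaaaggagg
A core of the form TGCACNC or TGCGCNC, on either strand, stood in 21.4% of 32851 RefSeq promoters of the same length. Among the promoters of the transporters it stood in 15 of 31, or 48.4%, and the difference was not tested. By gene it stood in 14 of the 26 transporters with a listed promoter, some of which have 2. These 26 are not the 26 tested, since they hold untested members such as Slc30a2 and lack tested ones such as Slc39a4. Of the called transporters, Slc41a1 had 1 core, Slc31a1 had 0, and Slc40a1 and Slc11a2 had no listed promoter. The last 14 bases of the Slc30a1 window lie in the exon that GENCODE M21 annotates. A match to so short a core is a description of the letters and not a bound site.

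FPKM was also summed over each zinc family, where the exact test of 3 against 3 libraries cannot go below p = 0.1 and so could make no call at 0.05. The ZIP transcripts summed to 178, 166 and 175 FPKM in labelled KO, against 159, 163 and 167 in WT, with a mean of 173 ± 6.29 in labelled KO and 163 ± 3.92 in WT (SD, n = 3 each). The groups overlapped, and an exact two-sided permutation test gave p = 0.2. Slc39a1 made up 52.2% of that sum in labelled KO and 51.9% in WT, and Slc39a7 19.3% in each. The ZnT transcripts summed to 33.6, 35.4 and 30.02 FPKM in labelled KO, against 32.4, 32.3 and 32.1 in WT (exact two-sided permutation p = 0.7). Slc30a5, Slc30a1 and Slc30a7 made up most of it, at 27.1%, 25.1% and 21.2% in labelled KO and 26.3%, 24.9% and 21.7% in WT. The ratio of the ZIP to the ZnT sum was 5.27 ± 0.576 in labelled KO and 5.05 ± 0.149 in WT (SD, n = 3 each, exact two-sided permutation p = 0.6). Without Slc39a9, an alternative added after the values were seen, the ZIP sum was 168 ± 3.46 in labelled KO and 160 ± 6.12 in WT, again with p = 0.2 by the exact test.

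The 6 untested transporters lay at or near 0. Slc30a2, Slc30a3, Slc30a8 and Slc39a5 had a count of 0 in the 6 libraries. Slc30a3 and Slc30a8 (ZnT3 and ZnT8) are known from synaptic vesicles and from insulin granules, Slc30a2 (ZnT2) from the mammary gland, and Slc39a5 (ZIP5) from gut and pancreas. Slc30a10, a manganese exporter of liver and gut, had 8 counts in WT replicate 1 and 0 in the other 5 libraries. Slc39a2 (ZIP2) had 4 to 8 counts in labelled KO and 4 to 15 in WT, and a same-strand gene, Mettl17, shares 4.38% of its exonic bases. A count of 0 allows up to 3 counts, or 0.0385 to 0.0440 CPM in labelled KO and 0.0437 to 0.0446 in WT, counting error only.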

How the data were processed

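RNA of 6 libraries was measured as poly(A) RNA-seq, per the labels' protocols. The submitters' processing notes name the build mm10 and the tools StringTie 1.3.4d, HISAT2 2.0.4 and cutadapt 1.9. A strand setting or annotation release is not given in the sources used here. Per the file headers, the authors deposited FPKM and an estimated count per gene and library, and a count of 0 carries an FPKM of 0.0001. No per-library column was left unused. Estimated counts, rounded, entered the quasi-likelihood test of edgeR 4.0.16 under R 4.3.3 (TMM, filterByExpr with minimum count 10 and total 15, glmQLFit, glmQLFTest), with Benjamini-Hochberg adjustment over 16256 genes. Standard errors were derived from F, and 95% limits from t with the fit's total degrees of freedom. Alternatives used DESeq2 1.42.0 and limma 3.58.1 on log2(FPKM + 0.1) or log2(FPKM + 1). The tools were also run on counts simulated from the means and dispersions that edgeR fitted here. Such counts follow the model of edgeR itself, so this run checks the code and not whether these data meet that model. Single values and sums were compared by exact two-sided permutation over libraries.

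The rule for the transporters reads names and no measured value, but these families and the lists of metal-handling and marker genes were chosen with earlier results of these data known. Named genes are every tested transporter, Mettl3, Csf1r, Adgre1, Itgam and up to 4 called genes of each metal-handling list by adjusted p. Promoters are from RefSeq (GRCm38.p6), and transcripts from GENCODE M21, in which 32 transporters were found and 28 had the coordinates of the deposited table. Of the 26 tested, 7 share exonic bases with another gene, and without a known strand setting opposite-strand reads cannot be told apart. Protein sequences were not used here. The labels do not say whether replicate numbers pair the libraries, and correlations over the genes with enough counts showed no such pairing.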

Additional observations from a re-analysis of the deposited data

How the results depend on the processing

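The 4 called transporters kept direction and call in the 13 other fits. Depth limits Slc39a12 and the 6 untested transporters, and spread between replicates limits Slc39a9, Slc30a7, Slc39a7 and Fth1. Over all genes, 1139 were higher and 921 lower, against 552 and 460 with the replicate number as a block, and 683 to 744 and 534 to 614 with a library left out. The fits without a library have fewer samples. Over the metal-handling lists 8 genes were higher, against 4 without a filter on low counts, 2 with the replicate block, and 2 to 4 with a library left out. The block ended the calls of Cnnm3 (adjusted p = 0.0635), Blvra (0.0690), Hmox2 (0.0727), Lcn2 (0.0551), Aco1 (0.0555), Trpm7 (0.110), Mt1 (0.107), Atp13a1 (0.126) and Coa6 (0.129). It ended no call among the transporters. Same-numbered libraries had correlations of their deviations of -0.0196, -0.00994 and 0.0124, taken over all genes with enough counts. These showed no pairing by number across the genes, but cannot exclude one for some of them. A call lost under the block need not be a weaker effect, and why these calls were lost was not tested.

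Of 26 transporters, 7 changed sign in some fit, and none of these 7 was called in the 6-library fits. Slc30a6 (-0.0074) became 0.01 and 0.0081 with limma at pseudocounts of 0.1 and 1, and Slc41a2 (-0.006) became 0.0132 and 0.0107. Slc39a14 (0.004) became -0.0015 with the FPKM filter. With a library left out, the log2 fold change ran from -0.0373 to 0.0997 for Slc30a5, -0.0596 to 0.0317 for Slc30a6, -0.146 to 0.212 for Slc30a7, -0.0215 to 0.141 for Slc39a7, -0.320 to 0.0357 for Slc39a8, -0.0664 to 0.122 for Slc39a14 and -0.0661 to 0.0397 for Slc41a2. For Mettl3 it ran from -0.0661 to 0.112. The causes were not tested.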
